A study of Mus musculus with 4 samples.

Results

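The senescence secretome is the set of cytokines, chemokines, proteases, protease inhibitors and growth factors that senescent cells release into their surroundings. The 39 genes described here were chosen by name from the 43280 genes of the deposited table: 5 genes of interleukins and tumour necrosis factor, 12 chemokine genes, 7 metalloproteinase genes, 5 protease inhibitor genes, 3 genes of the plasminogen activator system, 5 growth and stress factor genes and 2 adhesion molecule genes. All 39 were in the table. Their mRNA was sequenced from whole retinas of wildtype mice, with the strain labelled C6/BL6J. STZ mice were given streptozotocin, which destroys pancreatic beta cells, daily for 5 days (50 mg/kg, intraperitoneal) beginning when they were 6 weeks old, and control mice were given citrate buffer. Blood glucose above 25 mM was looked for 10 days later, and retinas of both groups were collected at 18 weeks. There were 2 libraries a group, called STZ 2L, STZ 4R, control 2L and control 4R after the column tags, and the labels do not state that they came from separate animals. The p-values therefore measure the spread between these libraries, which may be technical.

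Cytokines such as interleukin 1 and tumour necrosis factor act on receptors that switch on the transcription factor NF-kB, and NF-kB in turn drives further cytokine and chemokine genes. Chemokines draw leukocytes along a gradient, adhesion molecules on vessel walls let them attach, and metalloproteinases cut the matrix they cross, held in check by the tissue inhibitors of metalloproteinases (TIMPs). In the diabetic retina these factors are studied for leukocyte adhesion and loss of the blood-retina barrier.

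In these retinas the secretome was uneven. Of the 39 genes, 25 were detected, meaning at least 10 normalized counts in at least 2 libraries; 3 were borderline and 11 were near zero, under 10 normalized counts in all 4 libraries. Detected were 6 of the 7 metalloproteinase genes and all 5 protease inhibitor genes, while the inducible cytokines Il1a, Il1b and Il6 and 9 of the 12 chemokines were near zero or borderline. Between STZ and control retinas 0 of the 25 detected genes passed the test (limma, adjusted p under 0.05), the other 14 were below its filter, and over all 18127 genes tested 0% passed in either direction. Apart from Timp1, the smallest unadjusted p was that of the abundant metalloproteinase inhibitor Timp3, at 0.59 ± 0.21 (SE) on the log2 scale (limma, adjusted p = 0.999). The scarce inhibitor Timp1 stood at 1.82 ± 0.60 (SE; limma, adjusted p = 0.999). It passed the filter through its STZ values alone, which fixed its direction.

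The libraries held between 29352330 and 39299653 reads assigned to genes, so 1 read was worth between 0.827 and 1.14 normalized counts. The retina label was checked with rod genes: Nrl, the transcription factor of rod fate, had 66482 and 67322 normalized counts in STZ 2L and STZ 4R, against 71772 and 72532 in control 2L and control 4R. STZ 2L stood apart: 10 lens genes took 7.0% of its reads, while STZ 4R had 0.0138%, control 2L 0.0131% and control 4R 0.00164%. The 12 genes of cornea and conjunctiva were each higher in either STZ library than in either control, and summed to 12091 and 11739 normalized counts in STZ 2L and STZ 4R, against 1907 and 914 in control 2L and control 4R. Lens genes thus set STZ 2L apart and surface epithelium genes moved with treatment; the part of either in the differences below was not tested, beyond the values given without STZ 2L. In whole tissue, fewer cells of a type and less RNA per cell cannot be told apart.

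**Figure D1:**
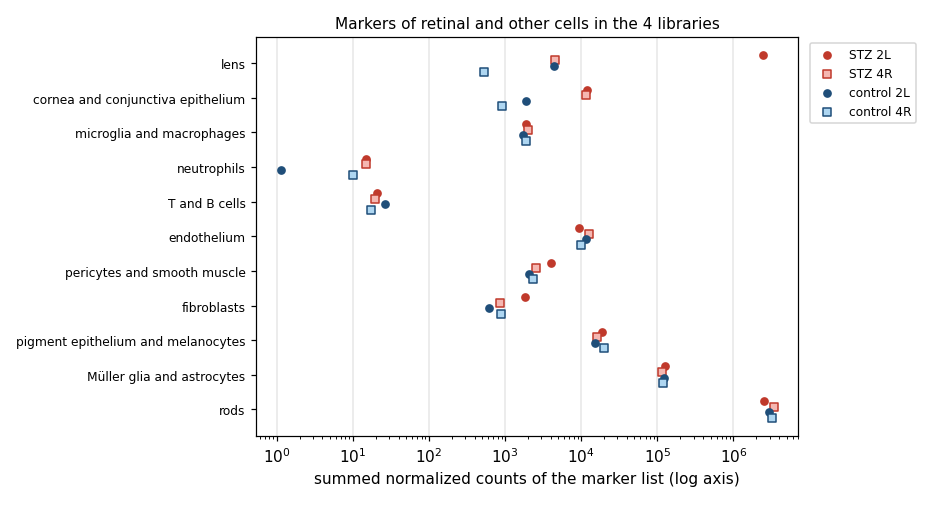
Summed normalized counts of 11 marker lists (rows) on a log axis, with a point for each of the 4 libraries. Lens markers in STZ 2L lie far to the right of the other 3 libraries, cornea and conjunctiva markers are higher in both STZ libraries, and neutrophil and lymphocyte markers are at most 26.2 normalized counts everywhere.

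4 secretome genes, Csf1, Cxcl1, Cxcl2 and Il6, carry a match to the NF-kB motif (GGGA, any base, then TTTCC, read on both strands) in the window from 250 bases before to 50 bases after the gene start. Their upstream sequence is shown because the same motif stands before 1 gene that the retina expressed and 3 that it hardly did. Sequences are from RefSeq on GRCm38.p6, the assembly also called mm10, and 27 of the 39 genes were matched there. Each line gives the 250 bases before the start, 5′ to 3′ along the gene's strand, with motif matches in capitals: the NF-kB motif, and in Il6 also the AP-1 motif TGANTCA near the 5′ end.
Csf1: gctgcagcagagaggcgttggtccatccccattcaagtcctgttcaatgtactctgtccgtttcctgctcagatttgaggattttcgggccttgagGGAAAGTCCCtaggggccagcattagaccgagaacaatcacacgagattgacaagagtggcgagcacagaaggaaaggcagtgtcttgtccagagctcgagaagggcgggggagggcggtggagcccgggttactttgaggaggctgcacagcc
Cxcl1: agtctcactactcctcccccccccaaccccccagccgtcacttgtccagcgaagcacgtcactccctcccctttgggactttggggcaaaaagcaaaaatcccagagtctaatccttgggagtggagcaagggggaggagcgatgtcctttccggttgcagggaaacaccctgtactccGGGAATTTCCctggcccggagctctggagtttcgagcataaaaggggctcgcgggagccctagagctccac
Cxcl2: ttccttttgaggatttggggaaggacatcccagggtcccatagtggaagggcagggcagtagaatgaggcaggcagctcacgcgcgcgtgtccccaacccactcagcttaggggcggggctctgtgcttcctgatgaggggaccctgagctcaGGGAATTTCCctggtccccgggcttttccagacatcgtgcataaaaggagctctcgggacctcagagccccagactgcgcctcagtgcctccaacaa
Il6: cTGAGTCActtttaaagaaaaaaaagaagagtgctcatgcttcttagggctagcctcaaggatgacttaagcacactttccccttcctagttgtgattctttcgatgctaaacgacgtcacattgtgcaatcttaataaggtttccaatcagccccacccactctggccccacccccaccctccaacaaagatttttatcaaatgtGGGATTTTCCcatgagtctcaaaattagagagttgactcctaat
The Csf1 window lies at chr3:107760470-107760719 on the minus strand, and those of Cxcl1, Cxcl2 and Il6 at chr5:90890995-90891244, chr5:90903649-90903898 and chr5:30012864-30013113 on the plus strand. The NF-kB match starts 154 bases before the gene in Csf1, 71 in Cxcl1, 97 in Cxcl2 and 44 in Il6. Among all 32851 promoter windows 135 held this motif (0.411%) and 2565 held the AP-1 motif (7.81%). AP-1 matches stood before 5 of the 27 matched secretome genes, Il6, Il1a, Cxcl10, Mmp3 and Plaur. None of these 5 was detected by the rule above, beside 25 detected of all 39. The share detected among all genes with this motif was not computed, so no link between motif and level is drawn. A match describes letters in a window, not a bound site. The motifs do not overlap in Il6, where the AP-1 match starts 249 bases before the gene.

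Of the inducible cytokines, Il6, the acute-phase interleukin, had 0 reads in all 4 libraries. This is 0 of 133792449 reads, which allows a level of up to 0.0224 RPM, by counting error alone. Il1b, a product of activated myeloid cells, had 8 and 4 reads in STZ 2L and STZ 4R, against 4 and 7 reads in control 2L and control 4R. Il1a, which many cells release as an alarm signal, had 4 and 16 reads in STZ 2L and STZ 4R, against 0 and 4 in control 2L and control 4R. Both Il1a and Il1b share exon bases with an antisense gene (222 and 25), and whether the counting used strand is not given in the sources used here. Tnf, tumour necrosis factor itself, was at the edge of detection, with 12.7 and 7.44 normalized counts in STZ 2L and STZ 4R, against 12.5 and 2.01 in control 2L and control 4R. The groups overlapped, and the log2 fold change of 0.75 ± 0.95 (SE) turned to -0.33 without control 4R.

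Il18, an interleukin stored as a precursor and released by inflammasome cleavage, was the interleukin gene with over 10 normalized counts in every library. It had 93.9 and 70.3 normalized counts in STZ 2L and STZ 4R, against 42.1 and 65.4 in control 2L and control 4R, so both STZ libraries lay above both controls. Control 2L was the low library, 1.5-fold or more under the other 3. It differed by 0.62 ± 0.41 on the log2 scale (SE; 95% interval -0.32 to 1.56; limma, adjusted p = 0.999), 0.31 without control 2L and 0.41 without STZ 2L.

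Among the chemokine genes 3 were detected. Cx3cl1, fractalkine, is a membrane-tethered chemokine of neurons and endothelium whose receptor Cx3cr1 marks microglia. It had 4658 and 4413 normalized counts in STZ 2L and STZ 4R, against 5499 and 4838 in control 2L and control 4R, so both STZ libraries lay below both controls. The difference was small, -0.19 ± 0.15 on the log2 scale (SE; 95% interval -0.54 to 0.17). Cx3cr1 overlapped between the groups, at 165 and 194 normalized counts in STZ 2L and STZ 4R, against 212 and 170 in control 2L and control 4R.

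Cxcl12, a chemokine that guides vessels and progenitors through the receptors Cxcr4 and Ackr3, had 331 and 626 normalized counts in STZ 2L and STZ 4R, against 788 and 606 in control 2L and control 4R. The low value was that of STZ 2L alone, the library rich in lens reads, and STZ 4R lay between the controls. The log2 fold change was -0.60 ± 0.31 (SE; 95% interval -1.31 to 0.11; limma, adjusted p = 0.999), but -0.14 without STZ 2L and -1.06 without STZ 4R. Cxcl16, a membrane-bound chemokine and scavenger receptor, had 362 and 449 normalized counts in STZ 2L and STZ 4R, against 393 and 612 in control 2L and control 4R. The groups overlapped. Its log2 fold change was -0.28 ± 0.27 (SE), and 552 of its exon bases are shared with Zmynd15 on the opposite strand.

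The 8 chemokines near zero were Cxcl1 and Cxcl2, which draw neutrophils, and Ccl2, Ccl3, Ccl4, Ccl5, Ccl7 and Ccl8, which draw monocytes and lymphocytes. Over the 4 libraries together Ccl8 had 2 reads, Cxcl1 3, Ccl7 3, Cxcl2 4, Ccl2 6, Ccl4 6, Ccl3 7 and Ccl5 23. Ccl2, the main attractant of monocytes, had 2 and 4 reads in STZ 2L and STZ 4R, against 0 in each control, and Ccl7 had 2 and 1 reads in STZ 2L and STZ 4R, against 0 in each control. For both genes the STZ libraries lay above the controls, but a count of 0 allows up to 3 reads in a library, so no fold change is given. The 6 reads of Ccl4 were all in control 2L and the 4 of Cxcl2 all in STZ 2L. Cxcl10, an interferon-induced chemokine for T cells, was borderline, with 1 and 21 reads in STZ 2L and STZ 4R, against 1 and 9 in control 2L and control 4R. Within each group its 4R library was the high one, and 133 of its exon bases are shared with Art3.

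Markers of neutrophils and lymphocytes were also scarce. Of 6 neutrophil markers, 6 were under 10 normalized counts in all 4 libraries, and Ly6g and Retnlg had 0 reads. Their summed level was 14.8 and 14.9 normalized counts in STZ 2L and STZ 4R, against 1.14 and 10.1 in control 2L and control 4R. Of 6 markers of T and B cells 5 were under 10 normalized counts, the exception being Cd4, and Cd3g had 0 reads. Microglia and macrophage markers were present, with sums of 1866 and 2032 normalized counts in STZ 2L and STZ 4R, against 1700 and 1857 in control 2L and control 4R. Among these, Mrc1 had 22.2 and 31.4 normalized counts in STZ 2L and STZ 4R, against 4.55 and 13.1 in control 2L and control 4R, and Itgam had 221 and 131 in STZ 2L and STZ 4R, against 121 and 96.6 in control 2L and control 4R. Tmem119 went the other way, with 58.0 and 97.6 in STZ 2L and STZ 4R, against 114 and 103 in control 2L and control 4R. Of the 10 markers, 6 had a positive and 4 a negative log2 fold change. Both STZ libraries lay above both controls in 2 and below in 1, beside 14.3% of all genes tested in each direction.

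**Figure D2:**
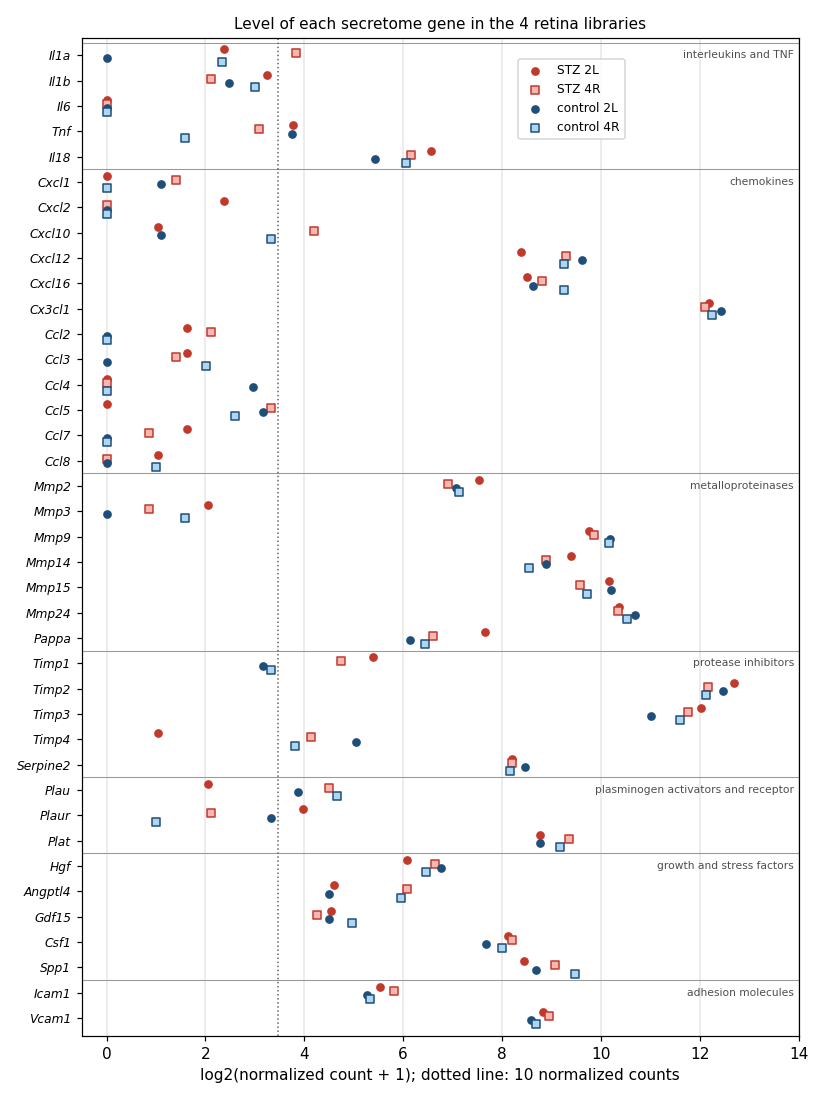
Level of the 39 secretome genes (rows, grouped by role) on a log2(normalized count + 1) axis, with a point for each of the 4 libraries and a dotted line at 10 normalized counts. Points left of the line are mostly cytokines and chemokines, while metalloproteinases and their inhibitors lie mostly to the right, and Timp1 has its control points left of the line and its STZ points right of it.

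Levels can be compared between genes only per length, here as normalized counts per kilobase of merged exon. On that scale Timp2 and Cx3cl1 led, with ranges over the 4 libraries of 1147 to 1697 and 1123 to 1399 that overlap. Timp3 (255 to 513), Mmp24 (276 to 354), Spp1 (209 to 431) and Mmp9 (244 to 326) came next, and their ranges overlap. Mmp15 (142 to 218) overlapped Spp1 and Cxcl16 (119.8 to 202), but not Timp3, Mmp24 or Mmp9. Il18, Vcam1, Csf1, Mmp2 and Serpine2 lay between 34.2 and 91.1. Tnf (1.23 to 7.73) and Timp4 (0.179 to 5.40) were the lowest of the detected genes by mean.

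**Figure D3:**
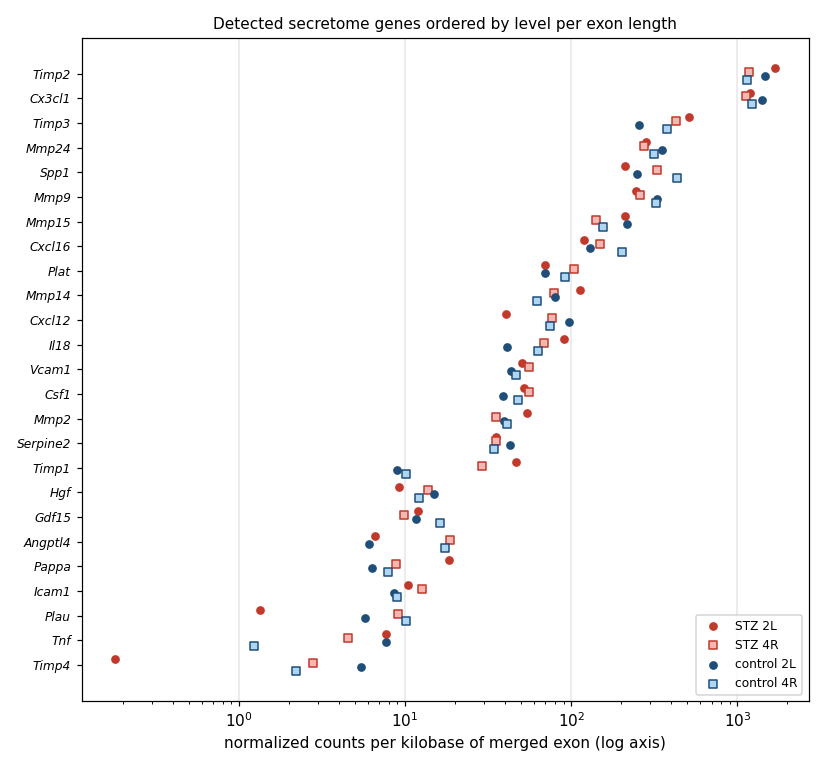
The 25 detected secretome genes ordered by their mean level in normalized counts per kilobase of merged exon (log axis), with a point for each of the 4 libraries. Timp2 and Cx3cl1 stand above 1000, the ranges of most neighbours overlap, and Timp4 and Plau in STZ 2L lie far below the other libraries.

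Of the 7 metalloproteinase genes 6 were detected. Mmp9, gelatinase B, which cuts basement membrane collagen and junction proteins, had 865 and 922 normalized counts in STZ 2L and STZ 4R, against 1155 and 1153 in control 2L and control 4R. Both STZ libraries lay below both controls, and the replicates of each group were close. The log2 fold change was -0.37 ± 0.17 (SE; 95% interval -0.75 to 0.02), between -0.42 and -0.32 with any library left out (limma, unadjusted p = 0.0578, adjusted p = 0.999).

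Mmp24, a membrane-type metalloproteinase known from neurons, also lay below, at 1323 and 1292 normalized counts in STZ 2L and STZ 4R, against 1656 and 1474 in control 2L and control 4R. Its log2 fold change was -0.26 ± 0.16 (SE). Of its exon bases 637 are shared with BC029722 on the opposite strand, a gene with 2436 and 1632 normalized counts in STZ 2L and STZ 4R, against 3006 and 2096 in control 2L and control 4R. Mmp15, another membrane-type enzyme, overlapped, with 1145 and 765 normalized counts in STZ 2L and STZ 4R, against 1176 and 838 in control 2L and control 4R. In both groups the 2L library was the higher one, and the log2 fold change of -0.08 ± 0.25 (SE) changed sign with either of 2 libraries left out.

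Mmp14, the membrane-type enzyme that activates pro-Mmp2, had 670 and 470 normalized counts in STZ 2L and STZ 4R, against 474 and 373 in control 2L and control 4R. Only STZ 2L exceeded both controls, and the log2 fold change of 0.41 ± 0.25 (SE) was 0.16 without that library. Mmp2, gelatinase A, had 184 and 118 normalized counts in STZ 2L and STZ 4R, against 133 and 139 in control 2L and control 4R. Again STZ 2L was the high library, and the log2 fold change was 0.12 ± 0.32 (SE) and -0.20 without it. Mmp3, stromelysin 1, a classic secretome protease, was near zero, with 3 and 1 reads in STZ 2L and STZ 4R, against 0 and 2 in control 2L and control 4R.

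Pappa, a metalloproteinase that frees insulin-like growth factors by cutting their binding proteins, had 202 and 96.8 normalized counts in STZ 2L and STZ 4R, against 69.4 and 86.5 in control 2L and control 4R. Both STZ libraries lay above both controls, by far more in STZ 2L than in STZ 4R. The log2 fold change of 0.84 ± 0.41 (SE; 95% interval -0.11 to 1.79; limma, adjusted p = 0.999) was 0.32 without STZ 2L and 1.37 without STZ 4R. STZ 2L was the library with 7.0% lens reads.

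The 4 TIMP genes and Serpine2 covered the inhibitors, and all 5 were detected. Timp1 is the inducible TIMP that reactive glia and fibroblasts make after injury. It was counted with 39 and 31 reads in STZ 2L and STZ 4R, against 7 and 9 reads in control 2L and control 4R, or 41.2 and 25.6 normalized counts in STZ 2L and STZ 4R, against 7.96 and 9.05 in control 2L and control 4R. Both STZ libraries lay above both controls, and only the STZ values took the gene past the minimum of 10, so that order was fixed once it entered the test. The log2 fold change was 1.82 ± 0.60 (SE; 95% interval 0.43 to 3.21; limma, unadjusted p = 0.0162, adjusted p = 0.999), 1.49 without STZ 2L and 1.74 without control 2L. In the authors' deposited table it was 1.97 with an unadjusted p of 0.0266.

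Timp1 (chromosome X, 20870166 to 20874735, mm10) lies inside the synapsin gene Syn1 on the opposite strand, with 0 shared exon bases. Syn1 itself had 3994 and 4262 normalized counts in STZ 2L and STZ 4R, against 5202 and 4109 in control 2L and control 4R, so the groups overlapped for the host gene. Without a stated strand setting, reads of the 2 genes cannot be told apart within Timp1's exons. Fibroblast markers, another known source of Timp1, summed to 1816 and 848 normalized counts in STZ 2L and STZ 4R, against 618 and 878 in control 2L and control 4R, with 6 of 6 detected. Of the 6, 4 had a positive and 2 a negative log2 fold change. Col1a2 and Pdgfra were higher in either STZ library than in either control, and 0 were lower. Of all genes tested 14.3% were higher in this way and 14.3% lower. Col1a2 had 589.8 and 305 normalized counts in STZ 2L and STZ 4R, against 96.7 and 226 in control 2L and control 4R, and Pdgfra had 712 and 387 in STZ 2L and STZ 4R, against 349 and 331 in control 2L and control 4R. The glial markers summed to 125526 and 117011 normalized counts in STZ 2L and STZ 4R, against 122013 and 117059 in control 2L and control 4R, with 7 of 7 detected. Vim, an intermediate filament gene also expressed outside glia, had 15070 and 4250 in STZ 2L and STZ 4R, against 3848 and 3781 in control 2L and control 4R. Gfap, the filament gene of reactive glia, had 709 and 1208 in STZ 2L and STZ 4R, against 549 and 753 in control 2L and control 4R, and overlapped. Of the 7 glial markers, 3 had a positive and 4 a negative log2 fold change. Both STZ libraries lay above both controls in 1 (Vim) and below in 2 (Rlbp1 and Slc1a3). The part of fibroblasts and glia in the Timp1 difference was not tested.

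Timp3, the TIMP bound to matrix and abundant in the membrane under the pigment epithelium, was among the most abundant of the listed genes. It had 4180.5 and 3468 normalized counts in STZ 2L and STZ 4R, against 2073 and 3087 in control 2L and control 4R. Both STZ libraries lay above both controls, and control 2L was the low one. It differed by 0.59 ± 0.21 on the log2 scale (SE; 95% interval 0.10 to 1.08; limma, unadjusted p = 0.0247, adjusted p = 0.999), 0.30 without control 2L, 0.46 without STZ 2L and 0.72 without STZ 4R. All 8 pigment epithelium and melanocyte markers were detected, with sums of 18745 and 16322 normalized counts in STZ 2L and STZ 4R, against 15415 and 20004 in control 2L and control 4R. Most of that sum was Rlbp1, a gene of Müller glia too; without it the sums were 5570 and 1784 in STZ 2L and STZ 4R, against 456 and 4748 in control 2L and control 4R. Control 2L was the lowest library in 6 of the 8 and for Timp3, beside 25.1% of all genes tested. Control 4R lay above STZ 4R in the sum without Rlbp1, but below it for Timp3. Dct, a melanin synthesis gene, had 3031 and 786 normalized counts in STZ 2L and STZ 4R, against 179 and 2722 in control 2L and control 4R. Rpe65, the visual cycle isomerase, had 432 and 455 normalized counts in STZ 2L and STZ 4R, against 117 and 537 in control 2L and control 4R; the part of these cells in the Timp3 difference was not tested. Timp3 (chromosome 10, 86300372 to 86349506, mm10) lies inside Syn3 on the opposite strand, shares 1733 of its 8144 exon bases with it, and Syn3 had 218 and 308 normalized counts in STZ 2L and STZ 4R, against 305 and 289 in control 2L and control 4R.

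Timp2, the TIMP that also takes part in pro-Mmp2 activation, had 6610.5 and 4582 normalized counts in STZ 2L and STZ 4R, against 5693 and 4470 in control 2L and control 4R. The groups overlapped and the log2 fold change was 0.13 ± 0.21 (SE), turning to -0.14 without STZ 2L. Timp4 was scarce, with 1.06 and 16.5 normalized counts in STZ 2L and STZ 4R, against 31.8 and 13.1 in control 2L and control 4R. STZ 2L held 1 read of it, and STZ 4R lay between the controls. The log2 fold change of -1.84 ± 1.07 (SE; 95% interval -4.30 to 0.61; limma, adjusted p = 0.999) was -0.29 without STZ 2L and -3.39 without STZ 4R. Timp4 lies inside Syn2, with 90 shared exon bases. Serpine2, protease nexin 1, an inhibitor of thrombin and plasminogen activators, had 292 and 293 normalized counts in STZ 2L and STZ 4R, against 354 and 284 in control 2L and control 4R, and overlapped between the groups.

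Of the plasminogen activator genes, Plat, tissue plasminogen activator, was well expressed. It had 435 and 653 normalized counts in STZ 2L and STZ 4R, against 432 and 575 in control 2L and control 4R. The 4R library was the higher in each group, and the log2 fold change was 0.09 ± 0.26 (SE). Plau, urokinase, had 3.17 and 21.5 normalized counts in STZ 2L and STZ 4R, against 13.6 and 24.1 in control 2L and control 4R. The low value was again that of STZ 2L, and the log2 fold change of -0.99 ± 0.90 (SE) was 0.23 without it. Plaur, the urokinase receptor, was borderline, with 14 and 4 reads in STZ 2L and STZ 4R, against 8 and 1 in control 2L and control 4R.

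Growth and stress factors showed 1 gene out of 5 with groups apart, beside 14.3% of all genes tested with STZ above and 14.3% with STZ below. Csf1, the growth factor of microglia and macrophages, had 276 and 294 normalized counts in STZ 2L and STZ 4R, against 205 and 253 in control 2L and control 4R, with both STZ libraries above both controls. Its log2 fold change was 0.32 ± 0.25 (SE; 95% interval -0.25 to 0.89) and 0.17 without control 2L. This is the gene whose NF-kB match is printed above, and the other 3 genes with that match had at most 4 reads in any library. Its receptor Csf1r was detected.

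Spp1, osteopontin, a secreted ligand of integrins and Cd44, had 345 and 540.0 normalized counts in STZ 2L and STZ 4R, against 413 and 710.1 in control 2L and control 4R. Hgf, the ligand of the receptor Met, had 66.5 and 99.2 normalized counts in STZ 2L and STZ 4R, against 108 and 87.5 in control 2L and control 4R. Both overlapped between the groups, at -0.33 ± 0.32 and -0.26 ± 0.37 (SE) on the log2 scale. Angptl4, a lipase inhibitor induced by hypoxia and fasting, split by tag and not by group, with 23.2 and 66.2 normalized counts in STZ 2L and STZ 4R, against 21.6 and 61.4 in control 2L and control 4R. Gdf15, a stress hormone of the TGF-beta family that signals to the hindbrain, had 22.2 and 18.2 normalized counts in STZ 2L and STZ 4R, against 21.6 and 30.2 in control 2L and control 4R. These overlapped as well, at -0.33 ± 0.54 (SE) on the log2 scale.

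Both adhesion molecules, the ligands on which leukocytes arrest, were higher in either STZ library than in either control, as were 14.3% of all genes tested. Vcam1 had 451 and 494 normalized counts in STZ 2L and STZ 4R, against 384 and 413 in control 2L and control 4R, a log2 fold change of 0.24 ± 0.21 (SE; 95% interval -0.23 to 0.71). Icam1 had 45.4 and 55.4 normalized counts in STZ 2L and STZ 4R, against 37.5 and 39.2 in control 2L and control 4R, a log2 fold change of 0.38 ± 0.42 (SE; 95% interval -0.60 to 1.35). With any library left out, log2 fold changes ranged from 0.18 to 0.31 for Vcam1 and 0.24 to 0.52 for Icam1. Since both STZ libraries lay above both controls, these could not change sign. Neither gene passed in the fit to all 4 libraries (limma, adjusted p = 0.999). Icam1 and Vcam1 share 511 and 61 exon bases with antisense genes. The sums of the endothelial markers overlapped between the groups, at 9353 and 12725 normalized counts in STZ 2L and STZ 4R, against 11447 and 9952 in control 2L and control 4R. Of the 7, 3 had a positive and 4 a negative log2 fold change. Both STZ libraries lay below both controls in 1, Esam, and above in 0. Esam had 425 and 480 in STZ 2L and STZ 4R, against 593 and 564 in control 2L and control 4R.

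**Figure D4:**
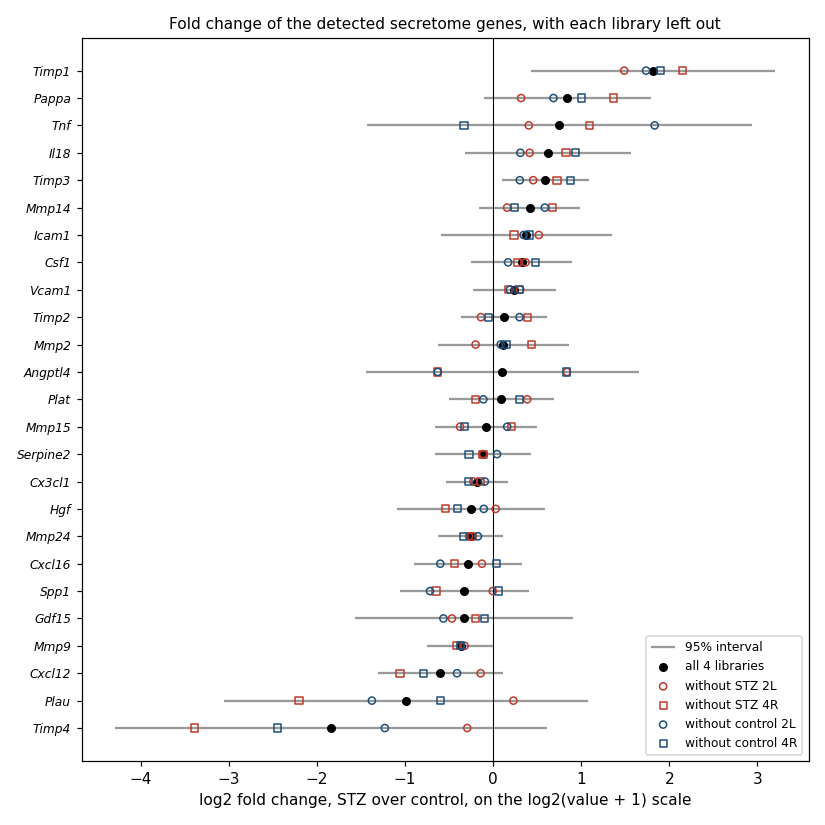
Log2 fold change, STZ over control, of the 25 detected secretome genes (rows), with the 95% interval of the limma fit as a bar, the fit to all 4 libraries as a filled point and the fit without each library as open symbols. The intervals of Timp1 and Timp3 lie above 0, but Timp1 passed the filter through its STZ values alone. The symbols for Timp4, Cxcl12, Pappa and Plau spread widely with the STZ library left out. Those of Mmp9, Vcam1, Csf1 and Icam1 stay on 1 side of 0, which the order of their libraries fixed.

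Since Timp1 passed the filter through its STZ values alone, counts over the detected genes are given for the other 24, then with Timp1. Of the 24, 12 had a positive and 12 a negative log2 fold change, with a median of 0.005; with Timp1 the median was 0.09, against -0.01 over all genes tested, of which 8857 were positive and 9270 negative. Both STZ libraries exceeded both controls in 6 of the 24 (Il18, Pappa, Timp3, Csf1, Icam1 and Vcam1), or 7 of 25 with Timp1, against a background of 14.3% of all genes tested. Both were lower than both controls in 3 of the 24 (Cx3cl1, Mmp9 and Mmp24), also against 14.3%. In a design of 2 against 2, an exact permutation test cannot go below p = 0.333 for any single gene. An unadjusted p under 0.05 in limma was reached by 1 of the 24 with STZ higher (Timp3), or 2 of 25 with Timp1, against 2.31% of all genes, and by 0 with STZ lower, against 0.447% (2.76% in either direction). A log2 fold change of at least 0.5 was seen in 4 of the 24 (Pappa, Tnf, Il18 and Timp3), or 5 of 25 with Timp1, against 8.90%, and of -0.5 or less in 3 (Timp4, Plau and Cxcl12), against 5.09%. With STZ 4R left out, 11 of the 25, Timp1 included, were above both controls in STZ 2L, against 33.2% of all genes, and 9 below, against 35.4%. With STZ 2L left out, 9 of the 25, Timp1 included, were above in STZ 4R, against 32.6%, and 6 below, against 32.3%. Of the 39 genes, 25 had in the authors' deposited table an adjusted p, and 0 passed 0.05, against 0.281% of genes passing as higher and 0% as lower. An unadjusted p under 0.05 there was that of Pappa, Timp1 and Timp3, 3 of the 39. The share of all genes with such a p was not computed for the deposited values. In DESeq2 on recovered reads it was reached by 554 genes as higher and 59 as lower.

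Some differences were those of a single library. In STZ 2L, 2 detected genes were at least 1.5-fold above every other library (Pappa and Timp1) and 3 at least 1.5-fold below (Cxcl12, Timp4 and Plau), on the (value + 1) scale. Over all genes tested 6.46% and 3.65% were so. In STZ 4R 0 of the 25 stood apart in this way, beside 0.53% of all genes tested above and 1.6% below. In control 2L there were 2 (Timp4 above, Il18 below), beside 1.56% above and 3.91% below. In control 4R there was 1 (Tnf, below), beside 0.98% above and 1.79% below. Together the 39 genes took 0.0648% and 0.0613% of reads in STZ 2L and STZ 4R, against 0.0636% and 0.0630% in control 2L and control 4R. These are shares of all reads, of which lens genes took 7.0% in STZ 2L. Within that total the 12 chemokine genes took 0.0153% and 0.0170% in STZ 2L and STZ 4R, against 0.0201% and 0.0189% in control 2L and control 4R, so both STZ shares were the lower. Most of these reads were those of Cx3cl1. It had 4415 of 5084 and 5336 of 6677 in STZ 2L and STZ 4R, against 4835 of 5889 and 4810 of 6038 in control 2L and control 4R. Protease inhibitor genes took 0.0318% and 0.0258% in STZ 2L and STZ 4R, against 0.0244% in each of control 2L and control 4R, so both STZ shares were the higher. Most of their 10544 and 10140 reads in STZ 2L and STZ 4R were of Timp2 (6265 and 5541) and Timp3 (3962 and 4194). So were most of the 7175 and 7817 reads in control 2L and control 4R (Timp2 5006 and 4444, Timp3 1823 and 3069).

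Receptors of these factors, 29 listed and 20 tested, gave 0 calls in limma, with 15 positive and 5 negative log2 fold changes and a median of 0.24. At an unadjusted p under 0.05 there were 2 higher and 0 lower, beside 2.31% and 0.447% of all genes. Met, the Hgf receptor, had 230.0 and 284 normalized counts in STZ 2L and STZ 4R, against 118 and 189 in control 2L and control 4R, a log2 fold change of 0.77 ± 0.31 (SE). Cd44, the hyaluronan and osteopontin receptor, had 1245 and 312 normalized counts in STZ 2L and STZ 4R, against 283 and 242 in control 2L and control 4R, so its 1.25 ± 0.54 (SE) followed STZ 2L. The tumour necrosis factor receptors Tnfrsf1b and Tnfrsf1a stood at 0.95 ± 0.44 and 0.34 ± 0.22 (SE) on the log2 scale, and Tnfrsf1b had 197 and 95.1 normalized counts in STZ 2L and STZ 4R, against 55.7 and 88.5 in control 2L and control 4R. The chemokine receptor genes Ccr2, Cxcr2 and Ccr1 had at most 4.22 normalized counts in any library.

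Regulators of NF-kB and C/EBP, 20 listed and 19 tested, gave 0 calls, with a median log2 fold change of 0.10 and 0 unadjusted p under 0.05 in either direction. The NF-kB subunit genes Nfkb2 and Relb stood at 0.60 ± 0.39 and 0.34 ± 0.32, the secretome transcription factor Cebpb at 0.55 ± 0.42, and the adaptor Traf6 at 0.22 ± 0.18 (SE). Nfkb2 and Cebpb overlapped between the groups, and Cebpb was high in STZ 2L only, with 158 and 76.9 normalized counts in STZ 2L and STZ 4R, against 77.3 and 72.4 in control 2L and control 4R.

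Other metalloproteinases and their regulators, 22 listed and 15 tested, gave 0 calls and a median of 0.23, with 2 higher and 0 lower at an unadjusted p under 0.05, beside 2.31% and 0.447% of all genes. Adamts4, an aggrecan-cutting protease, had 689 and 86.0 normalized counts in STZ 2L and STZ 4R, against 67.1 and 51.3 in control 2L and control 4R, and its log2 fold change of 2.04 ± 0.80 (SE) followed STZ 2L. Mmp16, a membrane-type enzyme, had close STZ replicates, at 155 and 151 normalized counts in STZ 2L and STZ 4R, against 69.4 and 106 in control 2L and control 4R, or 0.83 ± 0.34 (SE). Mmp19 stood at 1.58 ± 0.86 and the sheddase Adam17 at 0.30 ± 0.21 (SE), both in both STZ libraries above both controls. Of the 15 tested, 7 lay above in this way and 2 below, beside 14.3% of all genes in each direction.

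Other chemokines, 19 listed, had 7 members tested, with 0 calls, a median of 0.59, and 0 higher and 1 lower at an unadjusted p under 0.05, beside 2.31% and 0.447% of all genes. The lower one was Ccl27a, a chemokine made by epithelia, with 307 and 378 normalized counts in STZ 2L and STZ 4R, against 519 and 505 in control 2L and control 4R, a log2 fold change of -0.59 ± 0.22 (SE; limma, adjusted p = 0.999). Ccl9 and Ccl6, related myeloid chemokines of the mouse, stood at 0.61 ± 0.37 and 0.71 ± 0.59, and the B cell chemokine Cxcl13 at 0.59 ± 0.60 (SE). Each of the 3 was higher in either STZ library than in either control, and Ccl27a was lower, beside 14.3% of all genes tested in each direction. The highest value of Ccl9, Ccl6 and Cxcl13 was 126 normalized counts, for Ccl9 in STZ 2L.

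Other secretome genes, 24 listed and 17 tested, gave 0 calls, a median of 0.14 and 0 unadjusted p under 0.05. Igfbp4 encodes an insulin-like growth factor binding protein that Pappa cuts. It had 1553 and 1309 normalized counts in STZ 2L and STZ 4R, against 1251 and 970 in control 2L and control 4R. Its log2 fold change was 0.37 ± 0.19 (SE), with both STZ libraries above both controls. Of the 17 tested, 2 lay above in this way and 2 below, beside 14.3% of all genes in each direction. Igfbp7 had 10836 and 484 normalized counts in STZ 2L and STZ 4R, against 466 and 588 in control 2L and control 4R, so its log2 fold change of 2.13 ± 1.12 (SE) came from STZ 2L alone. The growth factor genes Tgfb1 and Inhba stood at 0.75 ± 0.61 and 0.63 ± 0.55 (SE), each with STZ 2L highest.

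**Figure D5:**
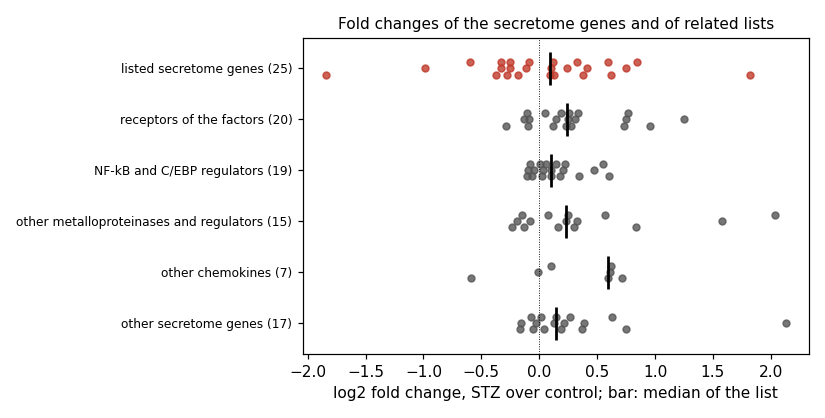
Log2 fold change, STZ over control, of each tested gene (points) in the listed secretome genes and in 5 related lists, with the number of genes in brackets and the list's median as a bar. Medians lie between 0.09 for the 25 listed genes and 0.59 for the 7 other chemokines, and points on both sides of 0 occur in every list.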

How the data were processed

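Per the labels' protocols, polyadenylated RNA of retina was made into Ion Torrent libraries and analysed in Torrent Suite 5.4.0, with STAR and then Bowtie2 alignment on mm10 and HTSeq and Picard for counting. Which annotation, strand setting and comparison tool they used is not given in the sources here. The authors deposited a signal (reads per gene over a library's size factor, called normalized counts), its mean, a log2 fold change, a score (standard error and test statistic) and p-values, raw and adjusted. The columns tagged 4R name their group but no sample, since the labels give 4L, and their time tag differs from the ages in the protocols, which are used here. Every value was a whole multiple of the value of 1 read, to within 0.01 reads, in 100% of cases per column. For control 4R that value was 1.00586, so that 13 reads of Timp4 were 13.0761 normalized counts. DESeq2 on the recovered reads gave the deposited log2 fold changes of Tnf (0.475) and Timp3 (0.567). Tests on recovered reads are given as alternatives only.

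The test was limma (3.58.1, R 4.3.3) with a trended prior on log2(value + 1), for the 18127 genes reaching 10 normalized counts in 2 or more libraries; treatment was the sole covariate, with two-sided tests and Benjamini-Hochberg adjustment over all of them at 0.05. Fold changes are STZ over control on that scale, which understates low genes. Scripts were tested on simulated data. Other settings tried were the tag as replicate block, omission of each library, TMM and quantile scaling, other filters and pseudocounts, robust moderation, and edgeR 4.0.16, DESeq2 1.42.0 and limma-voom on recovered reads. Exon lengths, coordinates and overlaps are from GENCODE M21 (GRCm38). Shares of reads and counts of 0 carry counting error only. Every listed gene is accounted for, detected genes have their value in each library, fold changes go to those with an unadjusted p under 0.05 or a log2 fold change of at least 0.5 in size and, after their values were seen, to others, and related lists give up to 4 genes with the smallest p. Some further genes (Cx3cr1, Csf1r, Rpe65, Ccr2, Cxcr2, Ccr1, Nrl, Mrc1, Itgam, Tmem119, Col1a2, Pdgfra, Vim, Gfap, Slc1a3, Esam, Rlbp1, Dct and the overlapping genes) were named after their values were seen. Genes and lists were chosen with earlier results of these data known.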

Additional observations from a re-analysis of the deposited data

How the results depend on the processing

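Of the listed secretome genes 0 passed under every alternative that kept all 4 libraries: the replicate block, TMM and quantile scaling, other filters and pseudocounts, robust moderation, edgeR's quasi-likelihood test, DESeq2 and limma-voom. Leaving out 1 library, the count lay between 0 and 4, the 4 being Cxcl12, Pappa, Timp3 and Timp4 without STZ 4R, where the lone STZ library, rich in lens reads, is assumed to vary like the controls. Over all genes the count was 0 in limma (419 higher and 81 lower unadjusted), 13 with no filter, 3 with robust moderation, 52 in DESeq2, and between 11 and 611 with 1 library left out. The median log2 fold change of the 25 detected genes, 0.09 (0.005 without Timp1), was 0.015 after quantile normalization, and between -0.12 and 0.044 with 1 library left out; the cause was not tested. With STZ 2L as the lone STZ library 11 of the 25 lay above both controls (33.2% of all genes), and with STZ 4R alone 9 (32.6%), alternatives chosen after seeing the data.

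Directions held for the 25 detected genes (19 with the filter at 50) under the alternatives that kept all 4 libraries. The replicate block, other filters and robust moderation leave each log2 fold change as it was, so only the remaining settings could alter a direction. With 1 library left out, log2 fold changes that changed sign ranged from -0.20 to 0.43 for Mmp2, -0.14 to 0.39 for Timp2, -2.20 to 0.23 for Plau, -0.54 to 0.029 for Hgf, -0.38 to 0.21 for Mmp15, -0.20 to 0.39 for Plat, -0.63 to 0.84 for Angptl4, -0.27 to 0.044 for Serpine2, -0.33 to 1.83 for Tnf, -0.60 to 0.035 for Cxcl16 and -0.72 to 0.064 for Spp1. With the tag as a replicate block, 0 genes passed (476 higher and 155 lower unadjusted); the tags are not stated to pair the libraries, and the 2L minus 4R differences of the 2 groups correlated at 0.099 across genes. Depth limits the genes with under 10 reads in all, 9 of the 39.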
